A study of Homo sapiens with 9 samples.

Results

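The 7 genes examined here cover the first steps of steroid hormone synthesis: STAR, CYP11A1, FDX1, FDXR, POR, CYB5A and TSPO. They were taken by symbol from the array's probe annotation. Of the 7, 6 had at least 1 probe set that names a single gene, out of 19775 genes compared, and FDXR was not analysed here. Together the 6 had 11 such probe sets, and each gene's main value is that of its brightest probe set by the mean over 9 arrays. The cells were H295R, an established human adrenocortical carcinoma line that secretes steroids, in 3 groups of 3 arrays. One group had 100 nM torcetrapib, a small molecule made to block the lipid exchange protein CETP, named in the series title and given in the sample labels by the code CP-529414. Another had 100 nM angiotensin II, the peptide that drives aldosterone secretion, and the third had DMSO, the vehicle. All were sampled at 3 h. Whether the 3 arrays of a group stand for 3 cultures is not stated in the labels. Each p-value therefore rests on array-to-array spread that could be technical. Serial numbers in the sample titles run within groups, so any order they stand for cannot be told apart from treatment.

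Steroid synthesis starts when cholesterol reaches the inner mitochondrial membrane, a step that STAR governs and that TSPO, a protein of the outer membrane, has been proposed to assist. There CYP11A1 cuts the cholesterol side chain and makes pregnenolone, with electrons that FDXR takes from NADPH and the small iron-sulphur protein FDX1 carries over. Later steps in the endoplasmic reticulum draw electrons from POR instead, and CYB5A, a cytochrome b5, raises the lyase activity of CYP17A1. STAR is known as the fast-responding control point of the adrenal cortex, acting within minutes to hours of a hormone.

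The upstream windows of FDX1, the gene that changed with both treatments, and of CYP11A1, the enzyme it serves, which passed in no comparison, are shown side by side. The CYP11A1 window was chosen after the values were seen. Each runs from 250 bases before to 50 bases after the RefSeq start, 5′ to 3′ on the gene's own strand, build GRCh38.p14. FDX1 lies at chr11:110429698-110429997 on the plus strand and CYP11A1 at chr15:74367597-74367896 on the minus strand. Capitals mark letters that match a searched motif on either strand.
FDX1: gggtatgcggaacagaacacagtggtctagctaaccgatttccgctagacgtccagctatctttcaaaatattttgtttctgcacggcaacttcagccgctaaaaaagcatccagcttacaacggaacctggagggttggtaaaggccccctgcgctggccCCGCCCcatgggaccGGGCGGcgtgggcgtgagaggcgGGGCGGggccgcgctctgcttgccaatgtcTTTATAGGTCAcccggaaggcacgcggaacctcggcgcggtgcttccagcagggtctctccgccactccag
CYP11A1: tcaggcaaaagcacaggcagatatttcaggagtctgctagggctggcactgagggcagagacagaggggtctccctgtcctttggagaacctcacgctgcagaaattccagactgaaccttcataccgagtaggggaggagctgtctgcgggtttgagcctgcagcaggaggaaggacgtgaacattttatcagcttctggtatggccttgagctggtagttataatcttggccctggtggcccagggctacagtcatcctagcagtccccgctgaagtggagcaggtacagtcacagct
The motifs were TGACGTCA and the shorter TGACG (CREB type), CAAGGTCA (NR5A1 type), AAAGGTCA (NR4A type), GGGCGG (SP1 type), TGANTCA (AP-1 type) and TATAAA, with AGGTCA, the shared core of the nuclear receptor types, added after the windows had been read. In FDX1, GGGCGG starts at positions -89, -74 and -51 from the start site, the first of them on the opposite strand. There TATAAA starts at -21 on the opposite strand and overlaps AGGTCA at -16. Of 35116 RefSeq windows of this length, 45.0% hold GGGCGG, 11.5% TATAAA and 13.8% AGGTCA. Among the windows not shown, GGGCGG occurs 3 times in that of CYB5A and 6 times in the first of TSPO. Both genes passed in no comparison, and the TSPO window also holds TGACG. The first window of FDXR, which was not analysed, holds GGGCGG 6 times. The motifs therefore do not separate the genes that changed from those that did not. None of the searched letters occurs in the CYP11A1 window, and FDX1 holds none of the CREB type, NR5A1 type, NR4A type or AP-1 type. TGACG occurs in 24.6% of windows, TGANTCA in 7.71%, TGACGTCA in 1.85%, CAAGGTCA in 1.28% and AAAGGTCA in 1.22%. Only these exact letters were searched, so variant sites of the same factors would be missed. The matches describe letters and not bound sites.

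Of 12 adrenocortical markers outside the 7 genes, 10 were measured. With DMSO their log2 levels were 14.16 for DLK1, 9.86 for CYP17A1, 9.32 for SULT2A1, 8.61 for HSD3B2, 7.08 for NR5A1, 6.93 for MC2R, 6.40 for INHA, 6.18 for MRAP, 5.70 for CYP11B2 and 4.36 for CYP11B1. The last of these lay in the dimmest 25% of genes. MC2R, the ACTH receptor, rose with angiotensin II (0.41, adjusted p = 0.0203). With torcetrapib against DMSO 0 of the 10 passed (limma, 0 higher and 1 lower before adjustment). INHA, an inhibin subunit, and CYP17A1 were lower with torcetrapib than with angiotensin II (-0.37 and -0.20). In the same order of comparisons 6.12%, 1.16% and 11.3% of all genes were called. Of 9 fibroblast, endothelial and immune markers 3 lay in that dimmest share (PDGFRB, CDH5 and PTPRC) and COL1A1 was the highest, at 7.75 with torcetrapib, 7.68 with angiotensin II and 7.72 with DMSO. Their summed linear signal ran from 459.3 to 463.9 with torcetrapib, from 422.4 to 541.6 with angiotensin II and from 439.6 to 473.9 with DMSO. For 5 adrenal medulla markers, of which TH was among the dimmest 25%, the sums were 612.7 to 657.4, 612.9 to 647.0 and 595.0 to 624.5 in the same order of groups. No marker of these other cell types passed the limma test in any comparison; before adjustment, 2 of the 9 were higher with angiotensin II than with DMSO and 1 was lower with torcetrapib than with angiotensin II. A sign of RNA quality differed too. For the ACTB and GAPDH controls the mean difference in log2 signal, 5′ end less 3′ end, called the index here, was -0.24 ± 0.03 (SD, n = 3) with torcetrapib, -0.62 ± 0.02 with angiotensin II and -0.50 ± 0.22 with DMSO. An exact two-sided permutation test gave p = 0.1 for torcetrapib against each other group, the smallest that 3 against 3 arrays allow. Within groups the index varied mostly among the DMSO arrays, so models that include it lean on those arrays. It also differed between treatments, so a call that ends with the index in the model does not tell RNA quality from treatment.

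FDX1, the electron carrier to mitochondrial steroid hydroxylases, rose with both treatments, more with angiotensin II, while CYP11A1, the hydroxylase it supplies at the first step, passed in no comparison. With the RNA quality index in the model the FDX1 rise with torcetrapib was smaller and not called (log2 change 0.18, against 0.37 without the index, limma adjusted p = 0.309). STAR rose with angiotensin II by a smaller factor. POR was lower with torcetrapib than with angiotensin II, a call that also ended with the index (limma adjusted p = 0.573). CYB5A and TSPO passed in no comparison. The size of change against DMSO ran from 1.58-fold for FDX1 with angiotensin II down to 1.01-fold for CYP11A1 and TSPO with angiotensin II.

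**Figure D1:**
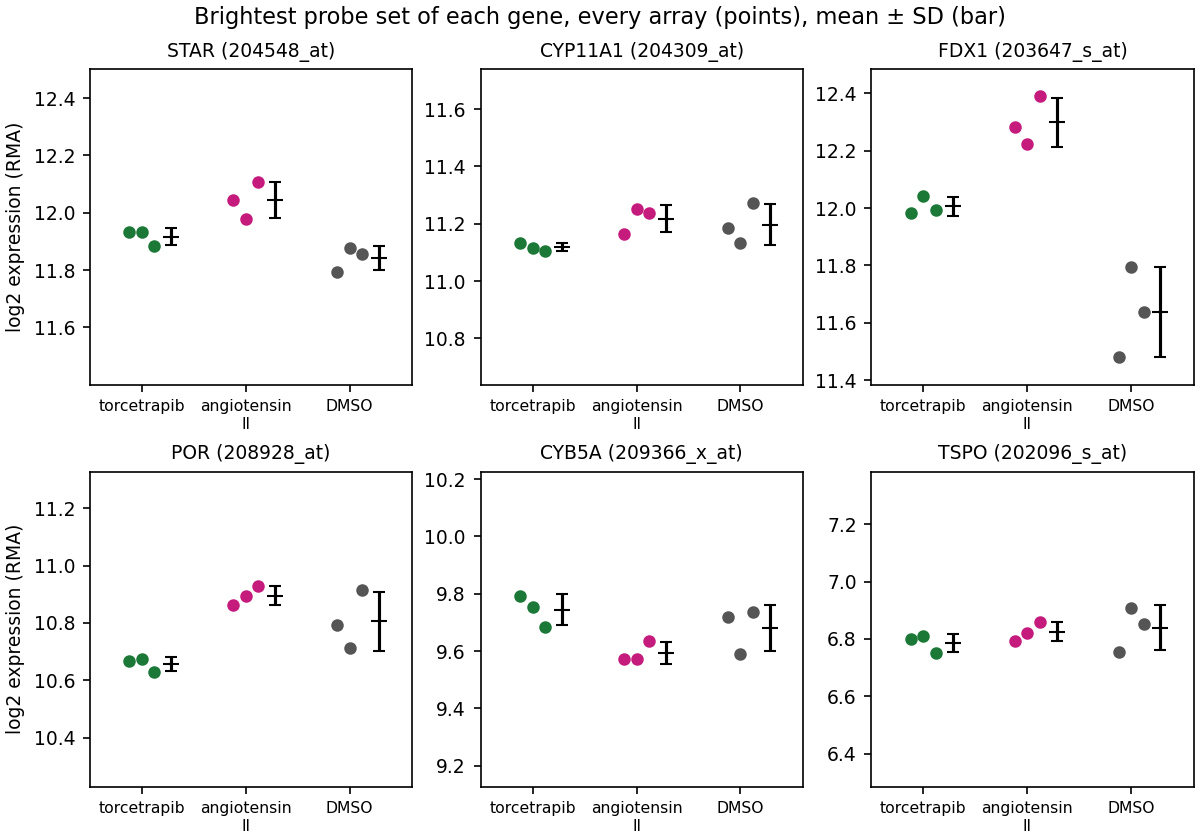
Log2 expression (RMA, vertical axis, all panels spanning the same height) of the brightest probe set of 6 genes on each array with torcetrapib, angiotensin II or DMSO, as points, with the mean ± SD of 3 arrays as a bar. The groups do not overlap for FDX1 in any comparison, and the TSPO points of all groups lie between 6.75 and 6.91.

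STAR, which moves cholesterol to the inner mitochondrial membrane, had log2 values of 11.93, 11.93 and 11.88 with torcetrapib. With angiotensin II they were 12.05, 11.98 and 12.11, and with DMSO 11.79, 11.88 and 11.86. All angiotensin II arrays lay above all others, and the torcetrapib arrays lay just above the DMSO arrays, the closest of both reading 11.88. With angiotensin II STAR rose 1.15-fold (log2 change 0.20 ± 0.04 SE, limma adjusted p = 0.00304 over all genes). In such bulk samples a rise in more of the cells and a larger rise per cell cannot be told apart. Larger rises with a call were seen for 625 genes, so the STAR change was small among the 665 genes that rose. With torcetrapib the log2 change was 0.08 with a 95% interval from -0.01 to 0.16, which did not pass (adjusted p = 0.417). The direct comparison put torcetrapib below angiotensin II by a log2 change of -0.13 ± 0.04 (adjusted p = 0.0423). That difference is near the threshold and was called in 9 of 19 alternatives, with adjusted p from 0.00205 to 0.209, and was -0.20 with the index in the model (0.206). The rise with angiotensin II was called in 18 of 19 (adjusted p from 3.69e-05), and not when the variance was left untrended (0.0891).

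TSPO, the translocator protein once held to import cholesterol, passed in no comparison. Its log2 values were 6.80, 6.81 and 6.75 with torcetrapib, 6.79, 6.82 and 6.86 with angiotensin II, and 6.75, 6.91 and 6.85 with DMSO. The 3 groups overlapped throughout. The change with angiotensin II was -0.01 (95% interval -0.19 to 0.16) and with torcetrapib -0.05 (-0.22 to 0.12). TSPO has 1 probe set, of a type that can bind several transcripts.

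CYP11A1, which makes pregnenolone from cholesterol, had log2 values of 11.13, 11.12 and 11.11 with torcetrapib. It had 11.16, 11.25 and 11.24 with angiotensin II, and 11.18, 11.13 and 11.27 with DMSO. The torcetrapib arrays lay at the low end, below all angiotensin II arrays, and 1 of them matched the lowest DMSO array while the others lay below it. With angiotensin II the change was 0.02 ± 0.04 (95% interval -0.07 to 0.11, adjusted p = 0.887), an interval that leaves out the FDX1 change. With torcetrapib it was -0.08 (-0.17 to 0.01, adjusted p = 0.456). Torcetrapib against angiotensin II gave -0.10 (-0.19 to -0.01), which did not pass after adjustment (adjusted p = 0.156), though it did when the arrays were quantile normalised again (0.0355, range 0.0355 to 0.913).

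FDX1 stood out among the 6 genes. Its brightest probe set read 11.98, 12.04 and 11.99 with torcetrapib, 12.28, 12.22 and 12.39 with angiotensin II, and 11.48, 11.80 and 11.64 with DMSO. The 3 groups were fully separated, with torcetrapib between the others. FDX1 rose 1.29-fold with torcetrapib (log2 change 0.37 ± 0.06, 95% interval 0.24 to 0.50, adjusted p = 0.00717) and 1.58-fold with angiotensin II (0.66 ± 0.06, 0.53 to 0.79, adjusted p = 2.58e-06). Both comparisons share the DMSO arrays. The treatments differed from each other by -0.29 ± 0.06, torcetrapib being 1.22-fold lower (adjusted p = 0.00605). By size FDX1 had 79 of 117 called rises above it with torcetrapib, and 207 of 665 with angiotensin II.

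Other probe sets of FDX1 gave the same order for angiotensin II and a smaller torcetrapib change. The second brightest, which unlike the brightest is not of a type that can bind several transcripts, read 11.34, 11.36 and 11.37 with torcetrapib, 11.70, 11.58 and 11.66 with angiotensin II, and 11.15, 11.14 and 11.15 with DMSO. These groups were again fully separated, and the DMSO arrays were nearly identical. With all probe sets tested, its log2 changes were 0.21 ± 0.04 with torcetrapib (adjusted p = 0.0229), 0.50 ± 0.04 with angiotensin II (adjusted p = 3.37e-06) and -0.29 ± 0.04 between the treatments (adjusted p = 0.000541). The dimmest read 8.05, 8.26 and 7.99 with torcetrapib, 8.63, 8.41 and 8.62 with angiotensin II, and 7.99, 7.93 and 8.02 with DMSO. It rose with angiotensin II by 0.57 ± 0.09 (adjusted p = 0.00192), whereas its torcetrapib arrays overlapped the DMSO arrays (0.12, 95% interval -0.07 to 0.31, adjusted p = 0.61).

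**Figure D2:**
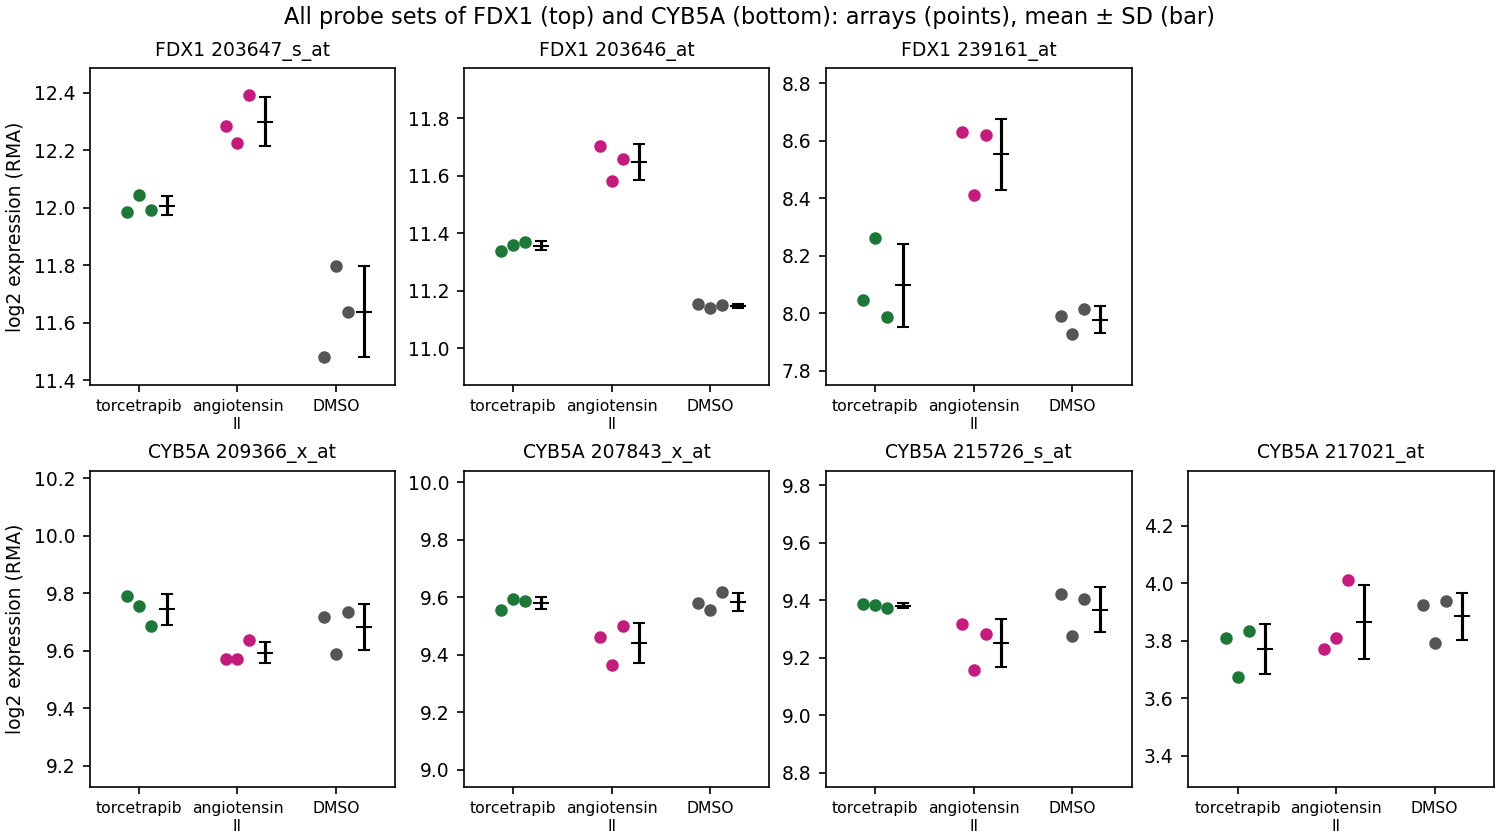
Log2 expression (RMA, vertical axis, all panels spanning the same height) on each array for the 3 probe sets of FDX1 in the upper row and the 4 of CYB5A in the lower row, each from brightest to dimmest, as points, with the mean ± SD of 3 arrays as a bar. All 3 FDX1 probe sets are highest with angiotensin II, and the first 3 CYB5A probe sets are lowest there.

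The brightest FDX1 probe set also moved with the RNA quality index inside the DMSO group. The DMSO arrays with an index of -0.72, -0.50 and -0.28 read 11.48, 11.64 and 11.80 by that probe set, but 11.15, 11.15 and 11.14 by the second brightest. With the index in the model, the torcetrapib change of the brightest probe set was 0.18 ± 0.05 and lost its call (adjusted p = 0.309), while the angiotensin II change was 0.75 ± 0.04 and kept it (adjusted p = 3.5e-09). The second brightest had nearly the same changes with the index as without it, at 0.21 ± 0.05 with torcetrapib (limma adjusted p = 0.171 over all probe sets) and 0.50 ± 0.04 with angiotensin II (adjusted p = 3.67e-06). The FDX1 call with torcetrapib ended too without the intensity trend (limma adjusted p = 0.146), with the mean of the probe sets (0.0771) and without torcetrapib replicate 2 (0.0567). The range was 0.000165 to 0.309 over 19 alternatives, which include the mean of the probe sets and the second brightest in place of the brightest. All 19 kept the direction, with log2 changes from 0.18 to 0.45. Between the treatments the FDX1 call ended without the trend (limma adjusted p = 0.0586) and held in the other 18. The change of the brightest probe set was -0.57 with the index, against -0.29 without it. With the index the other probe sets were not called between the treatments, at -0.28 for the second brightest (adjusted p = 0.0743) and -0.43 for the dimmest (0.39).

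**Figure D3:**
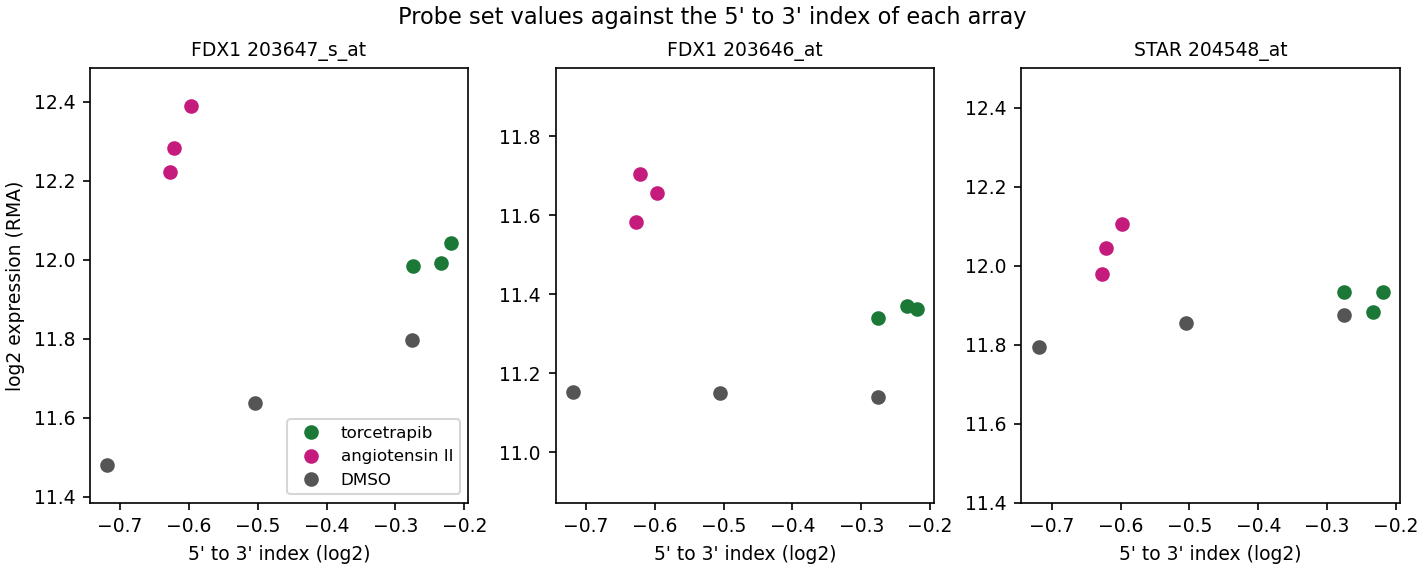
Log2 expression (RMA, vertical axis, all panels spanning the same height) of 2 FDX1 probe sets and of STAR plotted over that array's RNA quality index (log2, 5′ minus 3′ control signal, horizontal axis), with 1 point an array coloured by group. In the DMSO group the brightest FDX1 probe set (left) is higher on arrays with a higher index, whereas the second brightest (middle) stays between 11.14 and 11.15.

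POR, the reductase that feeds the microsomal P450 enzymes, passed the test between the treatments and not against DMSO. Its log2 values were 10.67, 10.68 and 10.63 with torcetrapib, 10.86, 10.90 and 10.93 with angiotensin II, and 10.79, 10.71 and 10.92 with DMSO. All torcetrapib arrays lay below all other arrays, and the angiotensin II arrays lay within the DMSO range except for the highest. POR was 1.18-fold lower with torcetrapib than with angiotensin II (log2 change -0.24 ± 0.05, 95% interval -0.34 to -0.13, adjusted p = 0.00508). Against DMSO the torcetrapib change was -0.15 ± 0.05 (-0.25 to -0.04) and did not pass (adjusted p = 0.185), though it passed without DMSO replicate 2 (-0.20, adjusted p = 0.0266) and with array weights (adjusted p = 0.0456), within a range from 0.0266 to 1. The angiotensin II change was 0.09 (-0.01 to 0.19, adjusted p = 0.41). With the RNA quality index in the model the difference between treatments was -0.17 ± 0.08 and was not called (adjusted p = 0.573, range 0.000192 to 0.573).

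CYB5A, the cytochrome b5 that assists CYP17A1 in androgen synthesis, passed in no comparison. Its brightest probe set read 9.79, 9.75 and 9.68 with torcetrapib, 9.57, 9.57 and 9.64 with angiotensin II, and 9.72, 9.59 and 9.74 with DMSO. Torcetrapib arrays were all above angiotensin II arrays, and the DMSO arrays spanned both. The change was 0.06 (95% interval -0.05 to 0.18) with torcetrapib and -0.09 (-0.20 to 0.03) with angiotensin II. Between the treatments it was 0.15 ± 0.05 (0.03 to 0.27), and the test was not passed (adjusted p = 0.0967). The 2 next brightest probe sets differed between torcetrapib and angiotensin II by 0.14 and 0.13, again with no overlap of the groups, and by -0.14 and -0.12 between angiotensin II and DMSO. All 3 are of types that can bind several transcripts, and none was called with all probe sets tested (lowest adjusted p = 0.117). The brightest was called between the treatments when quantile normalised again (limma adjusted p = 0.0423) and with array weights (0.00155). Over all alternatives for CYB5A between the treatments the adjusted p ran from 0.00155 to 0.585, the highest with the dim probe set in its place (-0.09). The last probe set was dim, with a mean of 3.84, and its groups overlapped.

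**Figure D4:**
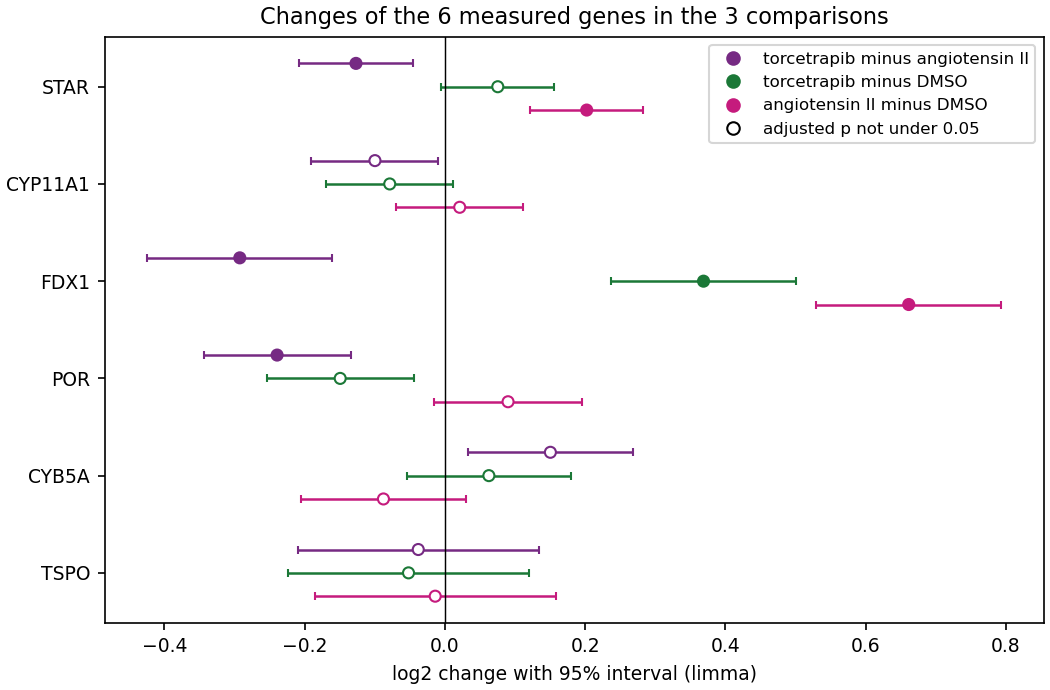
Log2 changes (horizontal axis) of the 6 measured genes with 95% intervals from limma, for torcetrapib minus angiotensin II, torcetrapib minus DMSO and angiotensin II minus DMSO. Filled points passed an adjusted p of 0.05, which 3, 1 and 2 of the genes did in these comparisons.

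Counted over the 6 genes, 1 rose and 0 fell with torcetrapib against DMSO, where 1.16% of all genes were called and 0.592% were called higher, and 3 of 6 had groups that did not overlap, against 16.5% of all genes. With angiotensin II against DMSO 2 rose and 0 fell, beside 6.12% of all genes called and 3.36% called higher, and 2 of 6 did not overlap, beside 17.6%. Torcetrapib against angiotensin II called 3, all lower, where 11.3% of all genes were called and 6.68% called lower, and 5 of 6 did not overlap, beside 28.6%. With so few genes these shares are descriptions. The split of all torcetrapib calls against DMSO depended on scaling: 51.1% were higher, against 65.8% or 35.6% with arrays centred by either of 2 medians and 34.5% quantile normalised again. The median log2 change over the 6 genes was 0.01 with torcetrapib, 0.06 with angiotensin II and -0.11 between the treatments, beside -0.03, 0.01 and -0.04 over all genes. Since the 6 belong to single steps of one pathway in the same 9 samples, they are no replicates of each other.

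Of 14 listed enzymes that receive electrons from FDX1 or POR, 12 were measured. With angiotensin II 3 rose and 0 fell, where 6.12% of all genes were called. CYP19A1, the aromatase that POR serves, rose 1.81-fold (log2 change 0.86 ± 0.12, adjusted p = 0.000132). Its log2 level was 6.49 ± 0.22 (SD, n = 3) with angiotensin II and 5.63 ± 0.13 with DMSO. HMOX1, the POR-dependent haem oxygenase, rose by 0.50 ± 0.09 and CYP27B1, the mitochondrial enzyme that activates vitamin D with FDX1's electrons, by 0.38 ± 0.09. With torcetrapib 0 of 12 passed (limma, 3 higher and 1 lower before adjustment), among them CYP19A1 with 0.35 (adjusted p = 0.188). Of all genes, 1.16% were called in that comparison. Torcetrapib against angiotensin II had 0 higher and 5 lower, beside 11.3% of all genes called. The 5 included CYP19A1 at -0.51, CYP27B1 at -0.40 and HMOX1 at -0.33. SQLE, the squalene epoxidase of cholesterol synthesis, changed by -0.24. CYP17A1, the hydroxylase and lyase on the way to cortisol and androgens, changed by -0.20. CYP11B2, the aldosterone synthase that FDX1 feeds, was at 5.84 ± 0.08 with torcetrapib, 5.95 ± 0.33 with angiotensin II and 5.70 ± 0.24 with DMSO and did not pass. The median change over these enzymes was 0.01 with torcetrapib and 0.16 with angiotensin II. Between the treatments SQLE and CYP17A1 were near the threshold (limma adjusted p = 0.0413 and 0.0395). With the index in the model 280 genes were called between the treatments, against 2232 without it. For genes outside the 6, here and in the other lists, no single result with the index is given. Each of them is given by its brightest probe set alone, though some have several, CYP19A1 having 7.

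**Figure D5:**
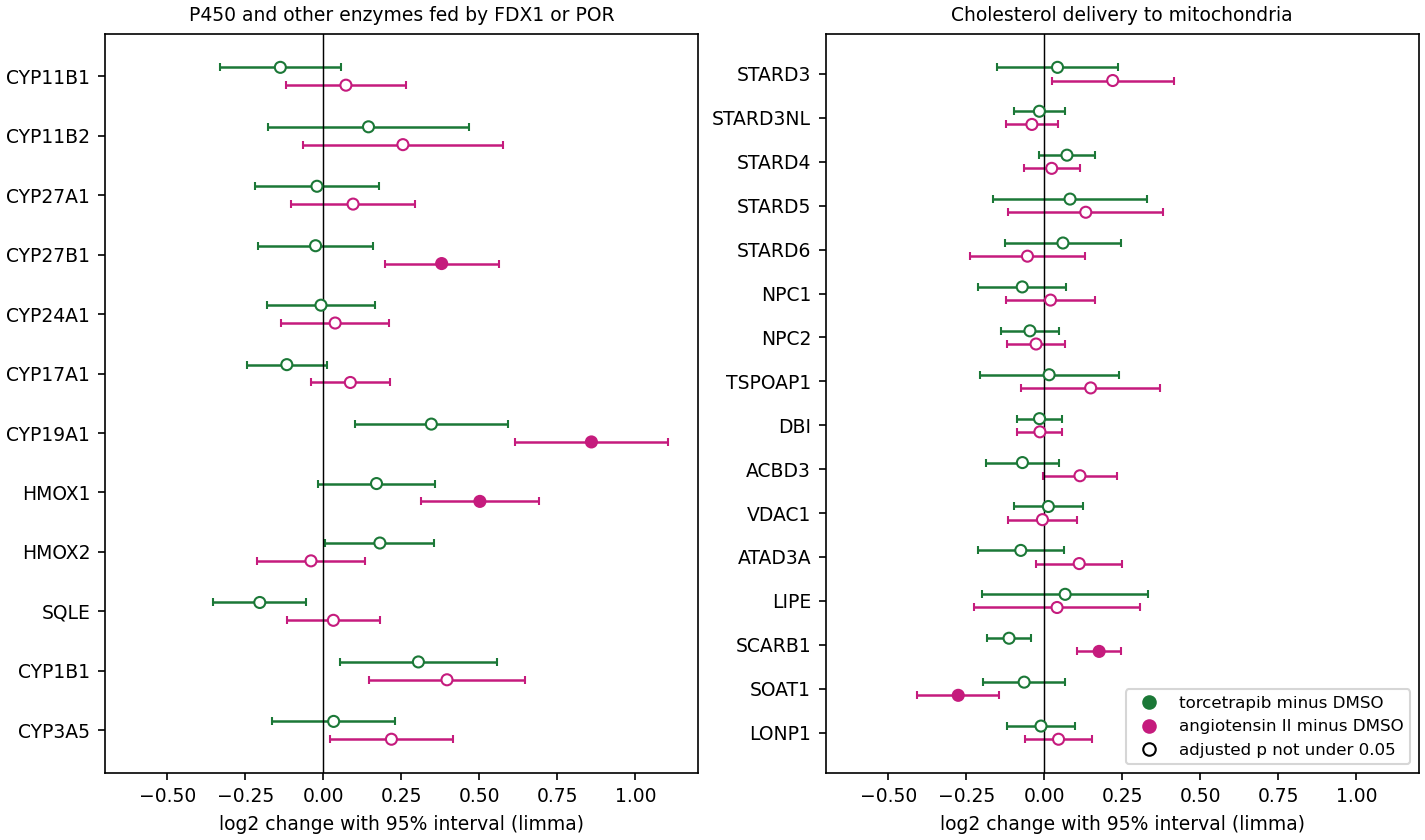
Log2 changes (horizontal axis) with 95% intervals from limma for torcetrapib minus DMSO and angiotensin II minus DMSO. Shown are 12 enzymes fed by FDX1 or POR and 16 genes listed with cholesterol delivery. Filled points passed an adjusted p of 0.05: CYP27B1, CYP19A1, HMOX1, SCARB1 and SOAT1, each with angiotensin II.

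Listed with cholesterol delivery to the mitochondrion were 16 measured genes, some of which serve storage or other sterol transport. Of these, 1 rose and 1 fell with angiotensin II, beside 6.12% of all genes called. SCARB1, the HDL receptor, rose by 0.18 ± 0.03 (adjusted p = 0.00304) and SOAT1, which esterifies cholesterol for storage, fell by 0.28 on the log2 scale (adjusted p = 0.0114). With torcetrapib 0 passed (limma, 0 higher and 1 lower before adjustment), beside 1.16% of all genes. Between the treatments SCARB1 was lower with torcetrapib by a change of -0.29 ± 0.03 (adjusted p = 3.2e-05). The Golgi protein ACBD3 was lower too, by -0.18, while SOAT1 was higher by 0.21. Of all genes, 11.3% were called between the treatments. STARD4 and STARD3, relatives of STAR that carry sterols outside this mitochondrial step, had changes of 0.07 and 0.04 with torcetrapib and of 0.02 and 0.22 with angiotensin II, none called. DBI, a ligand of TSPO, and VDAC1, the outer membrane channel, did not pass, all their changes lying between -0.01 and 0.02.

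Among 14 measured electron carriers and iron-sulphur assembly partners, 0 rose and 1 fell with angiotensin II, beside 6.12% of all genes called. The 1 was NNT, the mitochondrial transhydrogenase that makes NADPH, which fell by 0.22 (adjusted p = 0.033). FDX2, the ferredoxin of iron-sulphur assembly, had no call, with changes of 0.02 with torcetrapib and -0.04 with angiotensin II. With torcetrapib 0 passed (limma, 1 higher and 1 lower before adjustment), where 1.16% of all genes were called. Between the treatments NDOR1, a flavoprotein related to POR, was lower with torcetrapib (-0.37 ± 0.07, adjusted p = 0.00189), as POR was. The co-chaperone HSCB was higher (0.28 ± 0.07, adjusted p = 0.0179). Thus 1 of the 14 was lower and 1 higher, where 11.3% of all genes were called. The counts in this list lie near the shares over all genes and are descriptions.

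The genes with patterns closest to the called members were found by the root mean square difference between log2 values centred on each gene's mean over the 9 arrays. For FDX1 these were the phosphatase gene DUSP16 (0.0802), the ER co-chaperone gene DNAJB9 (0.0808) and SNAPC1 (0.0846), a subunit of a small nuclear RNA transcription complex. DUSP16 changed by 0.27 with torcetrapib and 0.56 with angiotensin II. For STAR they were the histone gene H2BC21 (0.028), the splicing factor gene PRPF4 (0.031) and the cathepsin gene CTSH (0.031). With angiotensin II PRPF4 was called (limma adjusted p = 0.0288), whereas H2BC21 and CTSH were not (0.081 and 0.276). With torcetrapib DUSP16 and SNAPC1 were called (0.0164 and 0.0412), whereas DNAJB9 was not (0.112). These genes were picked for their likeness to FDX1 or STAR on the same 9 arrays, so their calls are no separate support.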

How the data were processed

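Each of the 9 arrays has 1 deposited log2 value a probe set. According to the submitters' processing notes the authors used RMA (robust multi-array average), with software and version not given in the sources used here. Per the labels, biotin-labelled material was hybridised. Values ran from 2.503 to 14.634, and no further normalisation was applied. Control probe sets (62) and those naming several genes (1801) or none (11721) were not tested. The 41091 others gave 19775 genes, updated to current symbols where the gene identifier matched (41037 probe sets).

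All genes entered 1 limma 3.58.1 model (R 4.3.3) holding a mean for each of 3 groups (6 residual degrees of freedom, variance trended on intensity), two-sided, with Benjamini-Hochberg adjustment over all genes and a threshold of 0.05. The method was tested on simulated data. The 95% intervals are not adjusted. After ±, changes have a standard error and levels an SD.

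Genes, lists and alternatives were chosen with earlier results of these data known, and the centring was redefined after its results were seen (both definitions are given below). Named beside the 7 were up to 5 called genes a list and comparison with the largest change, genes a result turns on, and the 3 nearest patterns of each gene called against DMSO. No sequence of STAR is shown, and none was used for POR. Promoter windows are from RefSeq and matched 5 of the 7 genes. The number of arrays limits the precision. Alternatives changed the variance model, filter, scaling, probe sets, weights, samples, threshold or the index as covariate.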

Additional observations from a re-analysis of the deposited data

How the results depend on the processing

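The limits are 3 arrays a group, an unknown origin of the replicates, and an RNA quality index that was highest with torcetrapib. No paired analysis was possible because the labels state no pairing of arrays between groups. In none of the alternatives did a called change of one of the 6 genes reverse. The causes of the moves below were not tested.

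For angiotensin II against DMSO the 2 called genes of the 6 became 1 without the intensity trend. All genes called numbered 1210, against 2712 with array weights and 767 at a threshold of 0.01, and 956 to 1171 with each array left out, where 2 of the 6 were called each time. For torcetrapib against DMSO the 1 called gene of the 6, FDX1, became 0 without the trend, with the mean of probe sets and with the index in the model, and 2 with array weights. With each array left out it was 0 to 2. The 229 genes called, 51.1% of them higher, became 50 without the trend, 120 with arrays centred on the medians of all probe sets (65.8% higher), 519 quantile normalised again (34.5% higher), 108 with the mean of probe sets, 136 without _x_at and _s_at probe sets, 1272 with array weights, 145 with only the 2 groups, 76 with the index, 78 and 503 at thresholds of 0.01 and 0.1, 393 with every probe set tested, and 83 to 917 with each array left out. The count was 917 without DMSO replicate 2 and 94 and 105 without DMSO replicates 1 and 3, and 83, 92 and 84 without torcetrapib replicates 1, 2 and 3. For torcetrapib against angiotensin II the 3 called of the 6 became 1 without the trend, 5 quantile normalised again and 1 with the index, and were 2 to 3 with each array left out. The 2232 genes called became 6216 with array weights, 280 with the index, 1104 at a threshold of 0.01 and 3712 with every probe set tested, and 1351 to 2653 with each array left out. The counts without torcetrapib replicates 1, 2 and 3 were 1425, 1486 and 1351. Centring was first done on the median of single-gene probe sets. That gave 270 genes for torcetrapib against DMSO (35.6% higher), 1163 for angiotensin II against DMSO and 2234 for torcetrapib against angiotensin II (32.5% higher, beside 40.8% uncentred), with 1, 2 and 3 of the 6 called. The definition was changed to all probe sets after 270 was seen to differ from a count in an earlier account of these data, and then gave 120, 928 and 1660. The STAR difference between the treatments was called under the first definition (adjusted p = 0.0229) and not under the second (0.128). Between the treatments 57.6% of calls were higher with the mean of probe sets. With the other probe sets of FDX1 and the index together, chosen after seeing the data, the torcetrapib change was 0.21 and 0.14, neither called (adjusted p = 0.171 and 0.999).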

Other observations

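Of 13 measured factors known to act on the STAR or CYP11A1 genes, 4 rose and 0 fell with torcetrapib, and 5 rose and 1 fell with angiotensin II. Of all genes, 1.16% and 6.12% were called in these comparisons. The median log2 change over the 13 was -0.05 with torcetrapib and -0.04 with angiotensin II. NR4A1, an orphan nuclear receptor, rose by 1.36 ± 0.04 on the log2 scale with torcetrapib and by 2.73 ± 0.04 with angiotensin II, and FOS, an AP-1 subunit, by 1.04 ± 0.07 and 2.82 ± 0.07. JUN rose by 0.42 and 1.62. CREM, a cAMP-responsive factor, rose by 0.28 ± 0.04 with torcetrapib and 0.32 ± 0.04 with angiotensin II, and the difference between the treatments, -0.04 ± 0.04, did not pass. CEBPB, a bZIP factor, rose by 0.33 with angiotensin II, had a change of -0.23 with torcetrapib that did not pass (adjusted p = 0.0606), and was lower with torcetrapib than with angiotensin II (-0.57 ± 0.06, adjusted p = 7.7e-06). GATA6 fell by 0.68 with angiotensin II, with a change of -0.16 with torcetrapib that did not pass. NR5A1, the factor that steroidogenic genes share, was at 7.24 ± 0.14 (SD, n = 3) with torcetrapib, 7.04 ± 0.13 with angiotensin II and 7.08 ± 0.36 with DMSO, and passed in no comparison.

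Of 7 subunits and anchors of protein kinase A, which phosphorylates STAR, 0 passed with torcetrapib (limma, 0 higher and 1 lower before adjustment) and 1 fell with angiotensin II. That was the regulatory subunit PRKAR2B, which fell by 0.15 (adjusted p = 0.013). Of all genes, 1.16% were called with torcetrapib and 6.12% with angiotensin II. The catalytic subunit PRKACA was lower with torcetrapib than with angiotensin II (-0.29 ± 0.08, adjusted p = 0.0371), and PRKAR2B was higher (0.12 ± 0.03, adjusted p = 0.0273). Between the treatments 11.3% of all genes were called.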
